A study of Mus musculus with 2 samples.

Results

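Axon guidance genes encode the cues that steer growing axons and migrating neurons, and the receptors that read them. The set held the 71 genes of the ephrin, Eph, semaphorin, plexin, neuropilin, Slit, Robo and netrin families, with the netrin receptors and Draxin, out of 55416 features listed in the count matrices. Members were picked out by gene symbol, and the set itself was proposed with earlier results of these data known. Of the 71 genes, 36 encode ligands and 35 encode receptors. All 71 had at least 1 unique molecular identifier (UMI, the tag that lets copies of one captured RNA be counted once). At least 100 UMIs over both libraries were found for 63 members, and 8 had 1 to 99.

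Nuclei of whole fetal mouse brain were profiled on the 10x Genomics 3′ system in 2 genotypes, wildtype and Cav1 knockout, with 1 library of each. Cav1 encodes caveolin 1, a protein that shapes small pits of the plasma membrane. The labels give no fetal day, strain, sex, number of pooled fetuses or type of knockout allele. With 1 library per genotype no test between genotypes could be made, and every interval below is a 95% interval for counting error only.

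Guidance cues act at short or long range. Ephrins are held on the cell surface and bind Eph receptors on contact, class 3 semaphorins are secreted and signal through neuropilins and plexins, and Slits repel axons through Robo receptors. Netrin 1 attracts axons through Dcc and repels them through Unc5 receptors. In the fetal brain the same molecules guide tract formation, midline crossing and the migration of newborn neurons.

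In every pair of values below, the library labelled wildtype comes first and the one labelled knockout second. The libraries held 6686 and 6680 kept nuclei, with 17205381 and 19878903 UMIs and medians of 2134 and 2366 UMIs per nucleus. Cav1 itself had 71 and 80 UMIs (4.13 and 4.02 CPM, a gene's UMIs scaled to the same total in every sum), so its total did not separate the libraries. Among endothelial cell-like nuclei, Cav1 had 17 and 1 UMIs. Its neighbour Cav2 had 19 and 764. Because the total does not separate the libraries and the allele is not given, the libraries are named here by their labels. Nuclei were clustered without the guidance genes and classes were named from marker genes that include no member. The mix of classes differed: cortical excitatory neuron-like nuclei were 25.1% and 18.1% of the kept nuclei. Nuclei named by general neuron markers, called neuron-like, were 12.1% and 21.3%. They carried more specific genes too. Cluster 0 (607 and 1043 nuclei) matched monoaminergic neuron markers best, but Sim1, Pax2 and Pax5 were among its leading genes. Cluster 8 (203 and 377 nuclei) had Ebf2, Skor2 and Lmx1b among its own. Genes of the midbrain and isthmus (En1, En2, Pax3, Pax5, Pax7 and Cnpy1, a list made after the data were seen) summed to 54.6 and 101 CPM. Genes of the forebrain (Emx1, Emx2, Lhx2 and Nr2e1, from the same list) summed to 162 and 131 CPM. Genotype, the dissected regions and the library cannot be told apart.

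Over all kept nuclei, 7 of the 63 members with at least 100 UMIs (11.1%) were higher by 1.3-fold or more under the knockout label. The share over all 15527 genes with that many UMIs was 5.96%. The members were Robo3, Efna5, Unc5c, Ntn1, Plxna1, Epha6 and Epha10, which are 2 ligands and 5 receptors. Only Ntn3 (1.59% of the members) was at least 1.3-fold lower, where 3.04% of all genes were. The median log2 ratio of the knockout-labelled over the wildtype-labelled library was 0.03 for the members and -0.01 for all genes. Ligands had a median of 0.02 and receptors of 0.06. The interval lay above 0 for 16 members and below 0 for 14. The same count was not made over all genes, so it does not set the members apart from them.

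**Figure D1:**
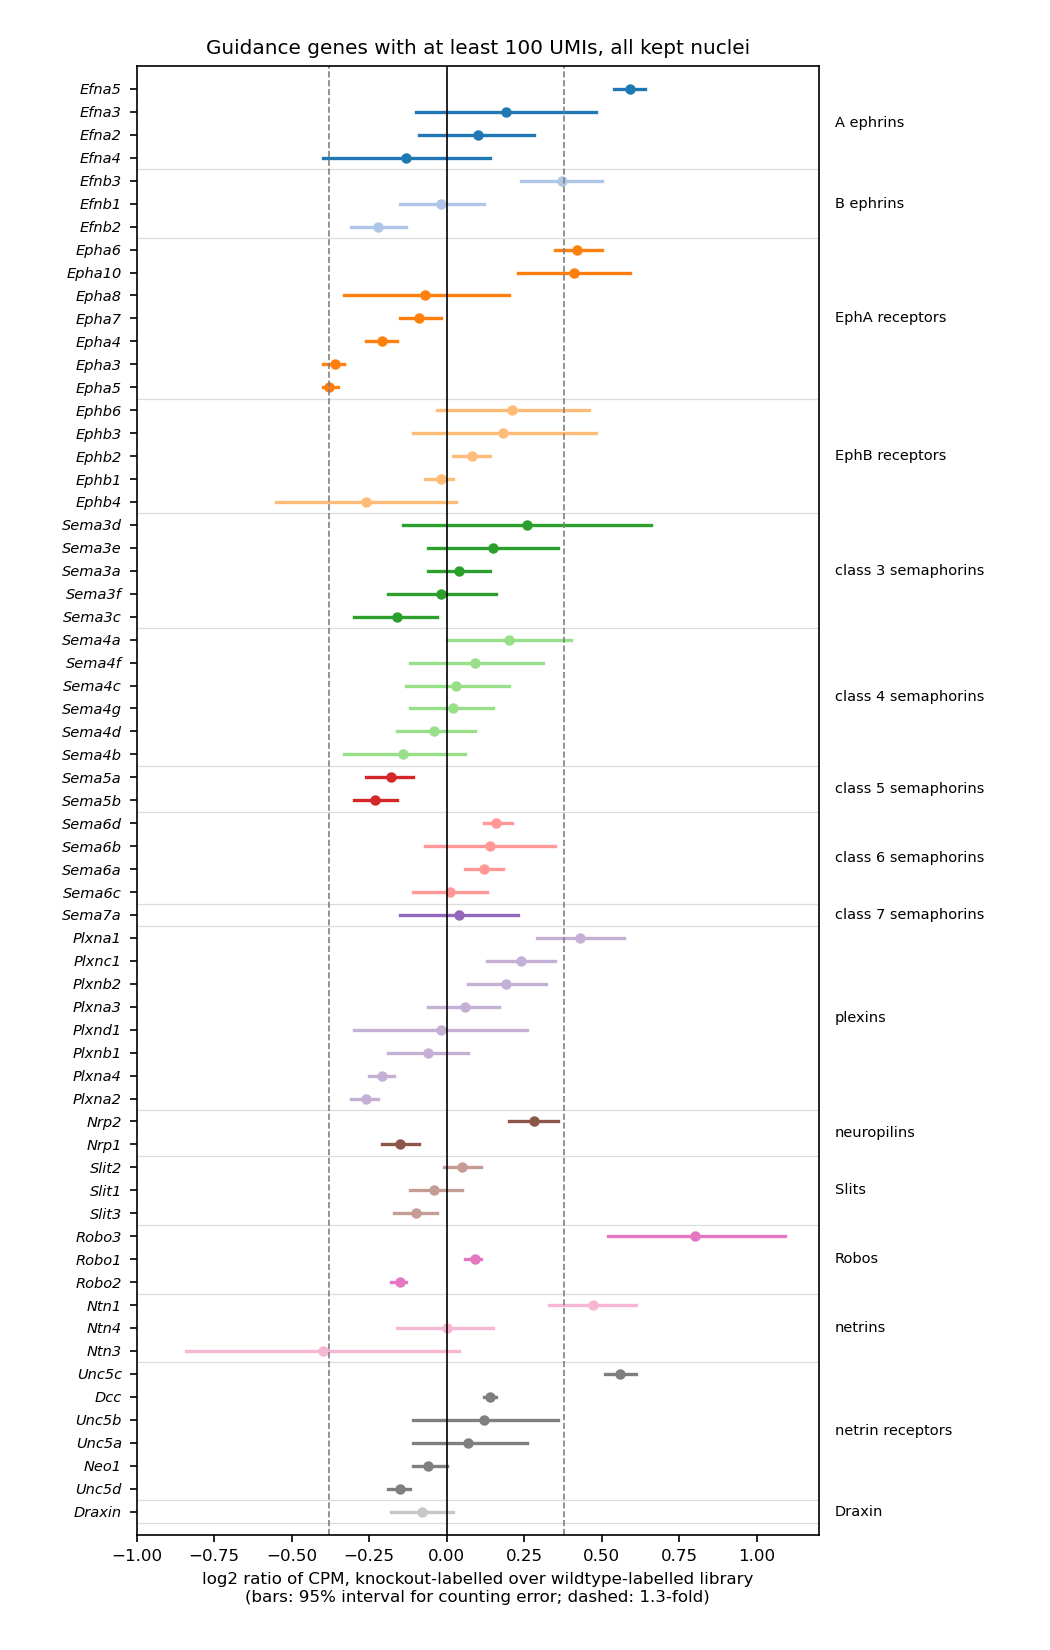
Log2 ratio of CPM, knockout-labelled over wildtype-labelled library, for the 63 guidance genes with at least 100 UMIs, over all kept nuclei and grouped by family. Points are ratios, bars are 95% intervals for counting error, and dashed lines mark 1.3-fold. Robo3, Efna5 and Unc5c stand farthest to the right, at 0.80, 0.59 and 0.56, and Ntn3 farthest to the left, at -0.40.

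For 5 of these 7 higher members the RefSeq promoter table (GRCm38.p6) held an entry, as it did for 61 of the 71 members. The 250 bases before the start are shown for the 3 with the largest ratios over all nuclei. Capitals mark each CG dinucleotide, the site of DNA methylation, and each sequence reads 5′ to 3′ on the strand of its gene.
Efna5: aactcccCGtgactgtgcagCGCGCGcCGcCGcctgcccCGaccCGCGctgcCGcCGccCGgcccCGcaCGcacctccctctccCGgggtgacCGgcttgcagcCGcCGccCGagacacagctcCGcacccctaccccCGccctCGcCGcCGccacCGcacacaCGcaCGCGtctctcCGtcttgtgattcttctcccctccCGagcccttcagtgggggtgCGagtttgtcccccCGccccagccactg
Unc5c: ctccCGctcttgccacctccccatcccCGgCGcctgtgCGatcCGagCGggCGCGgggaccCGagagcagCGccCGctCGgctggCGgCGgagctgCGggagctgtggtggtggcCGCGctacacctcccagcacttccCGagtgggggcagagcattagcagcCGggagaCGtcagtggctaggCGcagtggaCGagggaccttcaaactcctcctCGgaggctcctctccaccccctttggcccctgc
Robo3: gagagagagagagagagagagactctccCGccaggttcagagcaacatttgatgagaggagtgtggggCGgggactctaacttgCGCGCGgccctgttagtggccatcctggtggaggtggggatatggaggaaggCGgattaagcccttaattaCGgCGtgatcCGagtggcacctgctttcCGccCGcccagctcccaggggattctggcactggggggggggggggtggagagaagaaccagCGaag

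The Efna5 stretch (chr17:62881318-62881567, minus strand) held 32 CG dinucleotides, more than 95.4% of the 32851 promoters in the table. The Unc5c stretch (chr3:141465314-141465563, plus strand) held 23, more than 86.7% of them, and the Robo3 stretch (chr9:37433176-37433425, minus strand) held 12, more than 66.5%. At least 1 CG was present in 92.1% of all promoters of this length and in 98.7% of the members' 77, read on either strand since CG is its own reverse complement. The median was 6 CG dinucleotides over all promoters and 16 over those of the members. These counts describe the sequence, and methylation was not measured.

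Among the ligands, ephrin A5 carried the best-counted difference. Efna5 lies on chromosome 17 at 62909956 to 63188312 of GRCm39, on the minus strand. It had 5361 and 9306 UMIs, or 312 and 468 CPM, a log2 ratio of 0.59 (0.54 to 0.64). Ephrin A5 is a membrane-anchored repellent known for mapping retinal axons in the midbrain. The ratio of Efna5 came down to 0.48 when every class was given the same weight in both libraries. It was above 0 in 19 of 24 clusters, and its interval lay above 0 in 12 of them and below 0 in 1.

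The other A ephrins, which bind the same EphA receptors, differed less. Efna2, the next in UMIs, had 26 and 27.8 CPM (log2 ratio 0.10, -0.09 to 0.28). Efna3 and Efna4 had ratios of 0.19 and -0.13, both with intervals that held 0. Efna1 had 36 and 52 UMIs, under the minimum. Of the B ephrins, which bind EphB receptors and signal back into the cell that carries them, Efnb3 had 46.7 and 60.4 CPM. Its log2 ratio of 0.37 (0.24 to 0.50) was just short of 1.3-fold. Efnb2, an artery and neural ephrin, had 111 and 95.7 CPM (log2 ratio -0.22, -0.31 to -0.13), and Efnb1 50.9 and 50.3 CPM (log2 ratio -0.02).

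Netrins were the other ligand family with a member past the fold. Ntn1, the secreted netrin of the floor plate and ventricular zone (chromosome 11, 68100190 to 68291662, minus strand), had 688 and 1099 UMIs. Its level was 40.0 and 55.3 CPM, a log2 ratio of 0.47 (0.33 to 0.61), and 0.42 at the same class shares. Ntn4, a netrin of basement membranes, had 39 and 38.9 CPM. Ntn3 was the single lower member, with only 97 and 85 UMIs, and its log2 ratio of -0.40 had an interval of -0.84 to 0.04. Ntn5 had 4 and 2 UMIs. Draxin, a secreted repellent that binds Dcc, had 94.4 and 89.3 CPM (log2 ratio -0.08, -0.18 to 0.02).

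None of the 20 semaphorins or 3 Slits reached 1.3-fold among those with enough UMIs. Both class 5 semaphorins, transmembrane cues with thrombospondin repeats, had intervals below 0: Sema5a had 162 and 143 CPM (log2 ratio -0.18) and Sema5b 174 and 149 CPM (log2 ratio -0.23). In class 6, whose members are transmembrane ligands of A plexins, all 4 ratios lay between 0.01 and 0.16. Sema6d, with 461 and 517 CPM, had the highest of these. The 5 counted class 3 members ranged from -0.16 for Sema3c, a secreted cue of cortical neurons, to 0.26 for Sema3d, and the 6 class 4 members from -0.14 to 0.20. Sema3b and Sema3g had 13 and 25, and 11 and 28 UMIs. Slit1, Slit2 and Slit3, the Robo ligands, had ratios of -0.04, 0.05 and -0.10.

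On the receptor side, Unc5c and Robo3 differed most. Unc5c, a netrin receptor for repulsion (chromosome 3, 141170977 to 141540685, plus strand), had 4370 and 7444 UMIs, or 254 and 374 CPM. Its log2 ratio was 0.56 (0.51 to 0.61), and 0.26 at the same class shares, which is no longer 1.3-fold. Robo3, needed by commissural axons to cross the midline (chromosome 9, 37326965 to 37344737, minus strand), had only 155 and 312 UMIs, or 9.01 and 15.7 CPM. The Robo3 ratio of 0.80 (0.52 to 1.09) was the highest of the 63 and was 0.66 at the same class shares. Robo1 and Robo2, the main Slit receptors of forebrain axons, had 1253 and 1331 CPM (log2 ratio 0.09) and 1538 and 1386 CPM (log2 ratio -0.15). Robo4, known from endothelium, had 21 and 45 UMIs.

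EphA receptors differed in both directions, and the ratios of Epha3, Epha5, Epha6 and Epha10 were nearer 0 at the same class shares. Epha6 (145 and 194 CPM, log2 ratio 0.42, 0.35 to 0.50) and Epha10, an Eph receptor without kinase activity (24.6 and 32.7 CPM, log2 ratio 0.41, 0.23 to 0.59), were at 0.10 and 0.08 there. Epha5 had 26230 and 23354 UMIs, or 1525 and 1175 CPM, a log2 ratio of -0.38 (-0.40 to -0.35), which lies just inside 1.3-fold. At the same class shares the Epha5 ratio was -0.21, and it was below 0 in 17 of 24 clusters. Epha3 (686 and 533 CPM, log2 ratio -0.36) was -0.16 at the same class shares, and was below 0 in 18 of 24 clusters. Both bind A ephrins. Epha4 and Epha7 had ratios of -0.21 and -0.09 and Epha8 of -0.07. At the same class shares Epha4 was nearer 0, at -0.07, while Epha7 and Epha8 were farther from 0, at -0.13 and -0.24. Epha1 and Epha2 had 30 and 28, and 14 and 22 UMIs. Of the EphB receptors, Ephb1 and Ephb2 were close to equal, at log2 ratios of -0.02 and 0.08, Ephb3 and Ephb6 were at 0.18 and 0.21, and Ephb4, the venous receptor of Efnb2, was at -0.26 (-0.55 to 0.03).

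Among the plexins, Plxna1 was past the fold, with 666 and 1037 UMIs (38.7 and 52.2 CPM, log2 ratio 0.43, 0.29 to 0.57). Plexin A1 pairs with neuropilins to read class 3 semaphorins. The ratio was 0.38 at the same class shares, and just under 1.3-fold before rounding. Plxna2 (476 and 397 CPM, log2 ratio -0.26) and Plxna4 (660 and 571 CPM, log2 ratio -0.21), receptors of class 3 and class 6 semaphorins, came to -0.07 and -0.06 at the same class shares. The other 5 counted plexins ranged from -0.06 for Plxnb1 to 0.24 for Plxnc1, and Plxnb3 had 4 and 10 UMIs. Nrp1 and Nrp2, the neuropilins that bind class 3 semaphorins, had opposite signs, with 253 and 228 CPM (log2 ratio -0.15, -0.21 to -0.09) for Nrp1 and 122 and 149 CPM (log2 ratio 0.28, 0.20 to 0.36) for Nrp2. Of the netrin receptors not yet given, Dcc had 2284 and 2510 CPM (log2 ratio 0.14, 0.12 to 0.16) and Unc5d, which also binds Flrt proteins on migrating cortical neurons, 846 and 760 CPM (log2 ratio -0.15). Unc5a, Unc5b and Neo1, a receptor of netrins and RGM proteins, lay between -0.06 and 0.12.

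**Figure D2:**
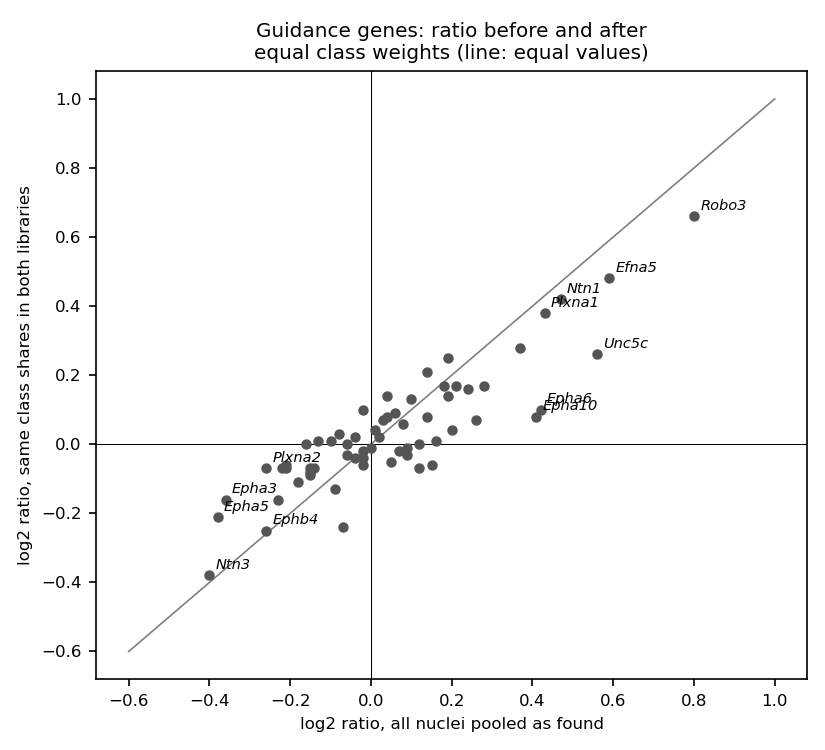
Log2 ratio of the 63 guidance genes over all nuclei as found (x axis) against the ratio when each class has the same share in both libraries (y axis); the line marks equal values. Epha6, Epha10 and Unc5c lie well below the line, at 0.10, 0.08 and 0.26 on the y axis, while Efna5, Ntn1 and Robo3 are at 0.48, 0.42 and 0.66.

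With the same class shares in both libraries, 3 members (Efna5, Ntn1 and Robo3) were at least 1.3-fold higher, where 3.79% of all genes were. The ratios of Unc5c, Epha6, Epha10, Epha5, Epha3 and Plxna2 were all nearer 0 in that setting. The midbrain and isthmus genes differed within classes too, and their part in the ratios was not tested.

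The levels of the guidance genes differed by class in a way that both libraries shared. Over the 9 named classes with at least 50 nuclei per library, 49 of the 71 members had the same highest class in both, and 44 of these had at least 20 UMIs there. For 19 of the 44, the intervals of the highest and the second class did not overlap in either library. The same counts were not made over all genes, so they do not set the members apart from other genes. Of these 19, 9 peaked in cortical excitatory neuron-like nuclei: Epha5, Neo1, Nrp1, Plxna2, Plxna4, Robo2, Sema3c, Sema4d and Slit3. Another 3 peaked in intermediate progenitor-like nuclei, 3 in fibroblast-like, 2 in neuron-like, and 1 each in other inhibitory neuron-like and radial glia-like nuclei. The remaining 25 had a highest class whose interval met that of its neighbour in at least 1 library. The gene's own levels are compared here across classes, since longer genes gave more UMIs (Spearman correlation of gene length and UMIs 0.77 over the 71 members).

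Receptors led the cortical group. In cortical excitatory neuron-like nuclei, Plxna4 had 1475 and 1377 CPM. The next class was neuron-like in one library, at 513 CPM, and forebrain inhibitory neuron-like in the other, at 506 CPM. Slit3, a ligand, had 419 and 436 CPM there, against 314 CPM in fibroblast-like nuclei of the first library and 167 CPM in neuron-like nuclei of the second. Sema3c had 108 and 114 CPM. Sema4d, the ligand of plexin B1, had 99.7 and 104 CPM. Robo2 had 2317 and 2202 CPM. The cortical group thus held 5 receptors for semaphorins, Slits and ephrins, Neo1, and 3 ligands.

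Among the 9 classes compared, intermediate progenitor-like nuclei, the dividing precursors of cortical neurons, had the highest levels of 3 members with separate intervals. Dcc had 6189 and 6599 CPM there, and the next class was cortical excitatory neuron-like in the first library, at 3039 CPM, and other excitatory neuron-like in the second, at 3365 CPM. Unc5d had 1972 and 1736 CPM against 1596 and 1451 CPM in cortical excitatory neuron-like nuclei. Sema5a had 757 and 679 CPM against 566 and 490 CPM in dividing cell-like nuclei. Epha3 was also highest in this class, at 1436 and 1372 CPM, but its interval met that of the cortical class. Among classes with at least 50 nuclei per library, the receptors Dcc and Unc5d peaked in the same one, which held 281 and 181 nuclei. The smaller Cajal-Retzius cell-like class had more Dcc in the first library, at 7775 CPM.

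Of the members highest in radial glia-like or dividing cell-like nuclei, only Ntn1 was apart from its second class. Among classes with at least 50 nuclei per library, Ntn1 was highest in radial glia-like nuclei. It had 130 and 207 CPM there, against 82.0 and 83.0 CPM in dividing cell-like nuclei. The smaller mural cell-like class had more Ntn1 in the first library, at 148 CPM. Sema5b had 570 and 547 CPM in dividing cell-like and 523 and 478 CPM in radial glia-like nuclei, which were not apart. Slit2 had 548 and 432 CPM in radial glia-like nuclei, not apart from its second class in both libraries, and more in the smaller choroid plexus epithelium-like class, at 779 and 684 CPM. Fibroblast-like nuclei, of the kind that make the meninges, were highest for Sema3a (262 and 341 CPM), Sema3d and Epha7 (896 and 592 CPM). Sema3d, with 81.5 and 77.5 CPM against at most 8.16 and 9.40 CPM in any other class of that size, was the only member at least 4 times its second class in both libraries. Sema6d, at 744 and 720 CPM, and Epha6, at 350 and 347 CPM, peaked in neuron-like nuclei. Epha10 had 184 and 240 CPM in other inhibitory neuron-like nuclei and 63 and 60 CPM in neuron-like nuclei.

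**Figure D3:**
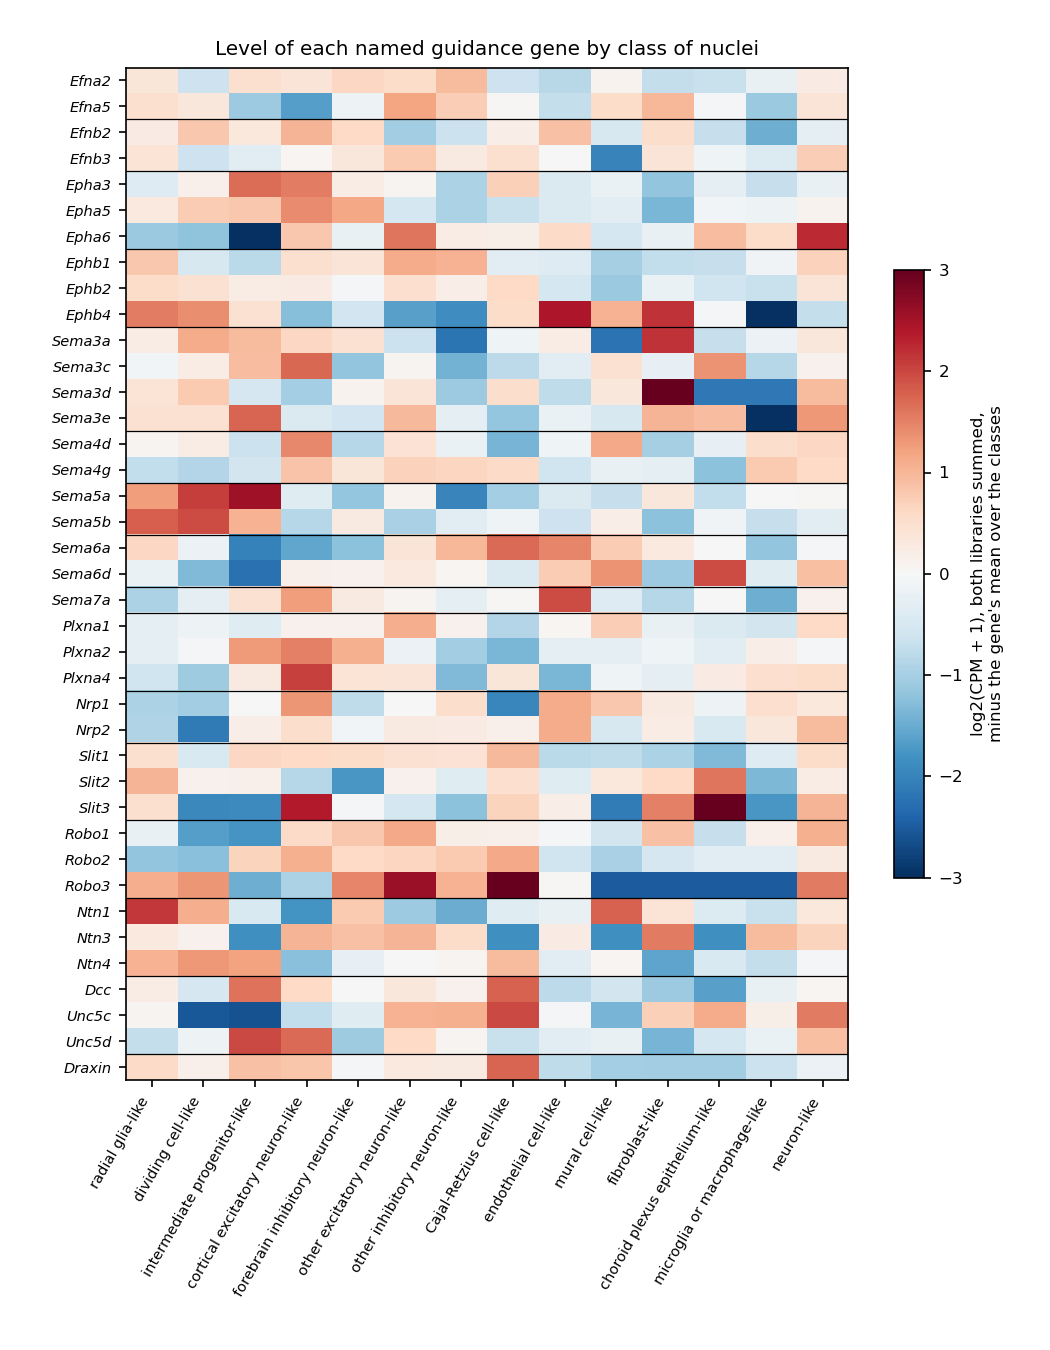
Level of the 39 named guidance genes (rows, by family) in the 14 named classes (columns): log2(CPM + 1) of both libraries summed, minus the gene's own mean over the classes. Plxna4 and Slit3 are high in cortical excitatory neuron-like nuclei, Sema5a and Dcc in intermediate progenitor-like nuclei, Ntn1 in radial glia-like nuclei and Sema3d in fibroblast-like nuclei.

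Several members were highest in classes of under 50 nuclei in a library, whose levels are given as values only. Vascular genes stood out in endothelial cell-like nuclei (48 and 64 nuclei): Robo4 had 38.6 and 102 CPM there, Sema3g 23.2 and 49.6 CPM, Plxnd1, the receptor of Sema3e, 151 and 229 CPM, and Efna1 57.9 and 68.9 CPM. In choroid plexus epithelium-like nuclei (47 and 46), Sema6d had 1413 and 1593 CPM and Slit3 602 and 915 CPM. In Cajal-Retzius cell-like nuclei (46 and 62), Dcc had 7775 and 6446 CPM, Draxin 272 and 239 CPM and Sema6a 961 and 949 CPM. Robo3 had 39.8 and 62.1 CPM there, from few UMIs. Dcc also had 2304 and 1021 CPM in microglia or macrophage-like nuclei, a class not known for it. At 1000 UMIs per nucleus, 36.0% and 30.8% of those nuclei had a Dcc UMI (34.6% and 35.3% of all 26 and 17 without thinning, at median depths of 2664 and 2316 UMIs). With so few nuclei, whether this level is free RNA was not tested.

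Ratios were then taken within the 6 classes with at least 200 nuclei in each library, for members with at least 50 UMIs in the class and a threshold of 1.5-fold. In radial glia-like nuclei, 4 of 48 members were higher (background 3.92% of genes) and 4 were lower (background 3.69%). Unc5c had 209 and 494 UMIs (131 and 296 CPM, log2 ratio 1.17, 0.94 to 1.41) and Efna5 524 and 1106 UMIs (329 and 663 CPM, 1.01, 0.86 to 1.16). Epha6 had 37 and 71 UMIs (0.87, 0.28 to 1.49), and Ntn1 had 207 and 345 UMIs (0.67, 0.42 to 0.93). The lower members were Sema3e, with 44 and 16 UMIs (-1.53, -2.45 to -0.67), Unc5d, with 568 and 363 (-0.71, -0.91 to -0.52), Sema5a, with 583 and 391 (-0.64, -0.83 to -0.46), and Sema4d, with 76 and 51 (-0.64, -1.18 to -0.11). The Sema3e ratio came to between -0.81 and -0.74, with intervals that held 0, under each of the 3 other clusterings tried. Netrin 1 and its receptor Unc5c were thus both higher and Unc5d lower in the same class.

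This class consisted of cluster 6, which held most of its wildtype-labelled nuclei (446 and 321), and cluster 9, which held most of its knockout-labelled nuclei (243 and 329) and had Pax3 among its leading genes. Within cluster 6 the ratio was 0.70 for Efna5, 1.40 for Unc5c, 0.63 for Ntn1 and -0.48 for Unc5d. Within cluster 9 it was 0.74, 0.67, 0.37 and -0.88. The direction of these 4 genes was the same in both clusters. Sema5a came to -0.20 (-0.40 to 0.00) and -0.44 (-0.99 to 0.12), so that neither interval was clear of 0. The class ratios of Efna5, Ntn1 and Sema5a were farther from 0 than those of either cluster. The midbrain and isthmus genes summed to 176 and 298 CPM in the class and the forebrain genes to 248 and 173 CPM. Their part in the results was not tested.

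In dividing cell-like nuclei, 3 of 33 members were higher (background 3.5%) and 1 was lower (background 3.59%). Efna5 had 189 and 433 UMIs, or 258 and 678 CPM (log2 ratio 1.39, 1.14 to 1.65). Dcc had 737 and 1236 UMIs, or 1008 and 1936 CPM (0.94, 0.81 to 1.08), both below the 2304 CPM of the wildtype-labelled microglia or macrophage-like nuclei. Slit1, a secreted Slit, had 34 and 51 UMIs (0.78, 0.13 to 1.45), and its interval held 0 with the highest doublet scores removed (0.68, -0.04 to 1.43). Sema3c, with 34 and 19 UMIs, was lower at -0.64, with an interval from -1.54 to 0.21. This class was 1 cluster, and its midbrain and isthmus genes summed to 9.57 and 92.4 CPM, from 7 and 59 UMIs. Efna5, Dcc and Slit1 were higher in the same class as these genes. Which of its nuclei carried them, and the part of the midbrain and isthmus genes in the ratios, was not tested.

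In other excitatory neuron-like nuclei, 4 of 55 members were higher (background 3.13%) and 0 were lower (background 2.28%). Dcc had 3445 and 6953 UMIs, or 1765 and 3365 CPM (log2 ratio 0.93, 0.87 to 0.99), the first of which is also below that 2304 CPM. At 1000 UMIs per nucleus, 51.9% (47.9 to 55.9, exact binomial) and 64.7% (60.7 to 68.6) of these nuclei had a Dcc UMI, after 7 and 14 shallower nuclei were left out. Without thinning the shares were 67.7% and 79.8%, at median depths of 2717 and 2981 UMIs. The Dcc ratio was 1.12 in cluster 5, led by Tfap2d and Pou4f1, and 0.27 in cluster 13. Sema7a, a membrane-anchored semaphorin, had 26 and 51 UMIs (0.89, 0.18 to 1.63), Ntn1 24 and 46 (0.86, 0.11 to 1.63), and Efna2 47 and 78 (0.65, 0.11 to 1.2). These 3 rested on few UMIs, and with the highest doublet scores removed before clustering Sema7a came to 0.06 (-0.75 to 0.88) and Ntn1 to 0.49 (-0.33 to 1.33). With the members allowed in the clustering, Sema7a was at 0.45 (-0.41 to 1.33) and Ntn1 at 0.12 (-0.80 to 1.04). In cluster 5 the midbrain and isthmus genes summed to 32.9 and 153 CPM.

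**Figure D4:**
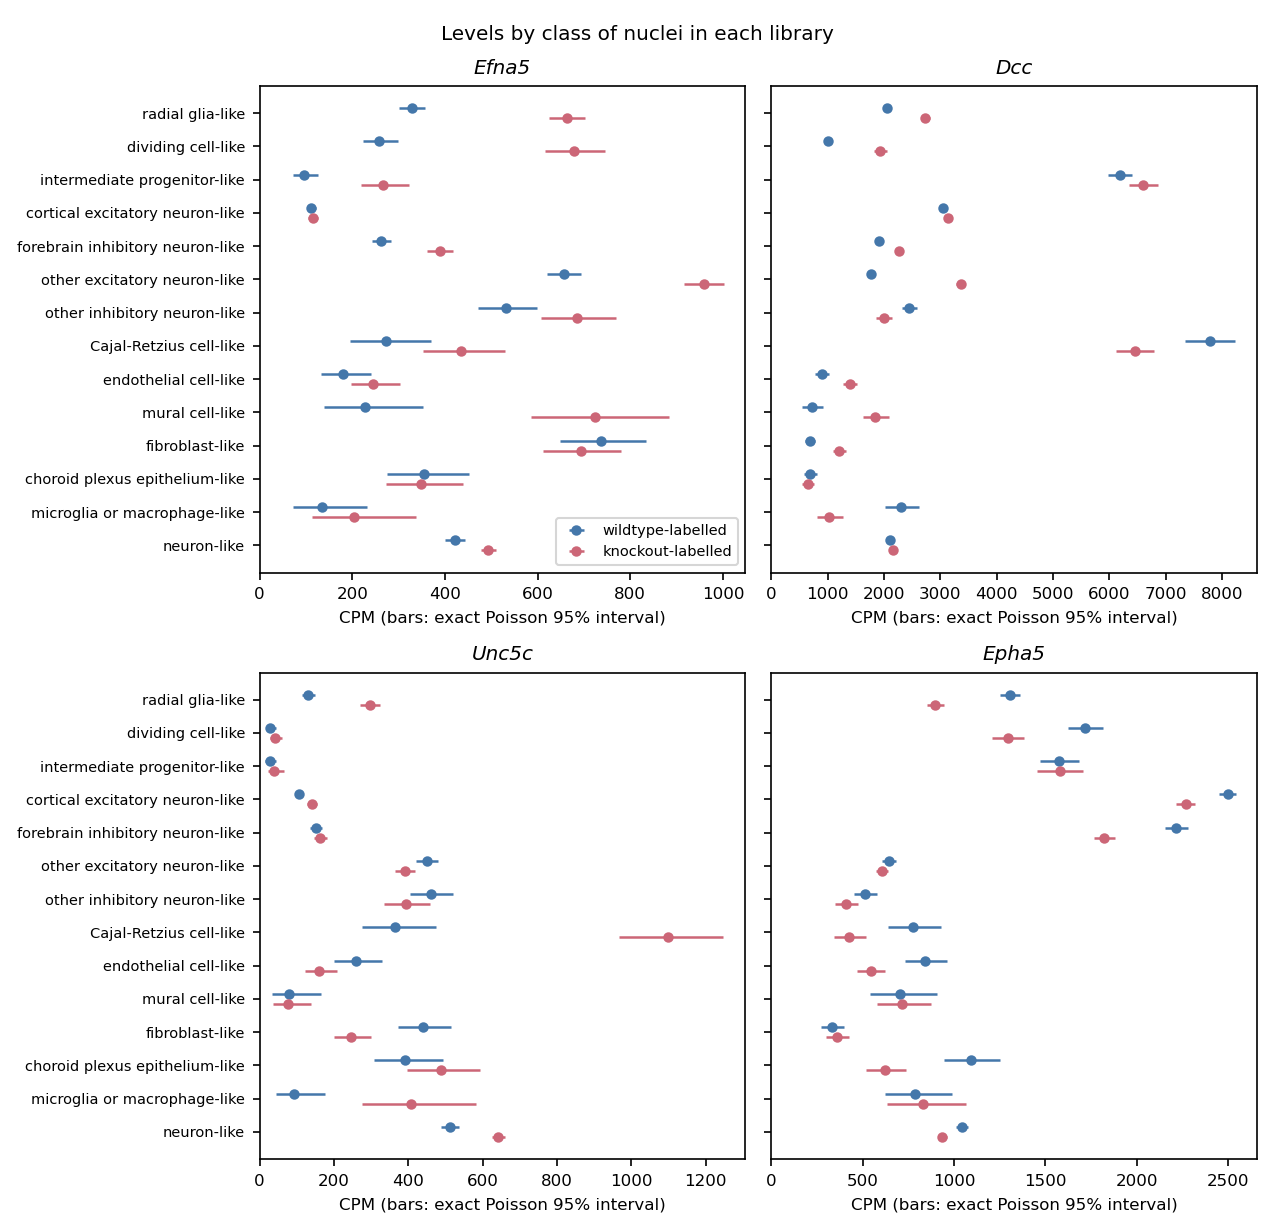
CPM of Efna5, Dcc, Unc5c and Epha5 (x axes, from 0) in each named class (rows) of the wildtype-labelled and knockout-labelled libraries; bars are exact Poisson 95% intervals. Efna5 is close to equal in cortical excitatory neuron-like nuclei (111 and 115 CPM) and apart in radial glia-like and dividing cell-like nuclei, and Dcc is apart in other excitatory neuron-like nuclei (1765 and 3365 CPM).

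Forebrain inhibitory neuron-like nuclei had 3 of 51 members higher (background 2.49%) and 0 lower (background 2.13%). Nrp2, by which interneurons read class 3 semaphorins, had 172 and 243 UMIs (76.5 and 119 CPM, log2 ratio 0.63, 0.34 to 0.92). Robo3 had 22 and 41 UMIs (1.03, 0.25 to 1.85), with an interval that held 0 once the highest doublet scores were removed (0.83, -0.12 to 1.83), and Ephb3 had 24 and 33 (0.59, -0.21 to 1.42). The class included cluster 18 (106 and 104 nuclei), whose leading genes were mostly of cell division beside Dlx1. Without that cluster, 3 of 50 members were higher (Nrp2, Robo3 and Efna5; 2.85% of genes) and 1 was lower (Sema4d; 2.34%), with Nrp2 at 0.67 and Robo3 at 0.91. In cortical excitatory neuron-like nuclei 0 of 56 members were higher (background 1.87%). In that class 1 was lower (background 1.97%), Sema3e, with 49 and 23 UMIs (-0.74, -1.52 to 0.01). Efna5 had 111 and 115 CPM in this class, where the members as a group had a median ratio of 0.02. In neuron-like nuclei 0 of 63 members passed in either direction (backgrounds 2.72% and 2.25%), and the ratios ran from -0.45 to 0.52. Members past the fold were most numerous in radial glia-like nuclei, and cortical excitatory neuron-like and neuron-like nuclei had at most 1. The shares over all genes were also largest in radial glia-like nuclei (3.92% higher and 3.69% lower). They were smallest in cortical excitatory neuron-like nuclei (1.87% and 1.97%).

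Outside the set, 75 genes that act beside or below these receptors were read in the same way: adhesion partners, semaphorin, netrin, Slit and Eph signalling genes, and cytoskeletal effectors. With at least 100 UMIs, 2 of 73 were at least 1.3-fold higher and 0 were lower, against 5.96% and 3.04% of all genes, and the median log2 ratio was -0.00. The highest ratio was that of Ablim3, an actin-binding protein (46.6 and 69.2 CPM, log2 ratio 0.57, 0.44 to 0.70), which came to 0.22 at the same class shares.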

How the data were processed

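The authors deposited matrices of raw UMI counts. Per the file headers these came from Cell Ranger 6.1.1; the submitters' processing notes name Cell Ranger 3.0.1, STAR and GRCm39. The annotation, and whether introns and strand entered the counting, are not given in the sources used here, and 52 of the 71 members overlap a gene on the other strand. Gene spans are from GENCODE M39 (GRCm39). Barcodes with at least 500 genes and at most 5% mitochondrial UMIs were kept (6686 of 9763 and 6680 of 10811), and 10 kept barcodes occurred in both libraries. Scrublet marked 0 nuclei, so it had not worked; doublets were kept, and removing the top 8% of scores was an alternative. Nuclei were clustered with scanpy 1.11.5 and leidenalg 0.10.2 (30 components, 15 neighbours, resolution 1, 24 clusters) and named by at least 3 markers at 2-fold. Names are rebuilt, not the authors'. The low-depth unnamed cluster 1 (631 and 970 nuclei) entered the totals, the same class shares and the counts of clusters, but no named class. Ratios of CPM have exact conditional binomial intervals, checked on simulated data; each library's CPM has a Poisson interval. Same class shares weight each class by the mean of both libraries' UMI shares. Members and lists were chosen with earlier results of these data known. Named genes were the 5 highest and 5 lowest ratios, and up to 3 per direction past 1.5-fold in a class with intervals excluding 1. They also took in the 2 members with most UMIs per family, and any member at 4 times its second class. Epha10, Ephb3, the radial glia-like ratio of Sema4d and others given with values complete counts, chosen after their values were seen. The values of 1 pathway gene are not reported here.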

Additional observations from a re-analysis of the deposited data

Results flagged for a closer look

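For 4 members the ratio of the knockout-labelled to the wildtype-labelled library had opposite signs in 2 classes. The intervals excluded 0 in both, and at least 1 of the ratios was past 1.5-fold. How many of all genes met this rule was not counted. The difference between the classes was not tested, since each genotype had 1 library. Unc5c had a log2 ratio of 1.17 in radial glia-like and -0.21 in other excitatory neuron-like nuclei. Unc5d, a receptor of the same family, had -0.71 in radial glia-like and 0.15 in other excitatory neuron-like nuclei. Nrp2 had 0.63 in forebrain inhibitory neuron-like and -0.44 in other excitatory neuron-like nuclei. Sema5a had -0.64 in radial glia-like nuclei and 0.28 in those like cortical excitatory neurons. The radial glia-like class joined clusters 6 and 9, which held most of it in different libraries, and within each the Sema5a interval reached 0 (-0.20, -0.40 to 0.00, and -0.44, -0.99 to 0.12).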

How the results depend on the processing

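The 7 members at least 1.3-fold higher over all nuclei stayed past that fold under the 7 other filters, scalings and thinning. Efnb3 joined them with at least 200 genes (6.05% of all genes), no mitochondrial limit (6.12%) and scaling by the median of gene ratios (6.51%). Efna3 joined them with thinning (4.88%), and the count was 8 in each of these settings. The count fell to 3 (Efna5, Ntn1 and Robo3) at the same class shares, and was 11 with a minimum of 20 UMIs and 12 with no minimum, where 11% and 17.1% of all genes passed. The count of lower members was 1. It came to 0 with at least 1000 genes per nucleus (3.25% of all genes) and 0 without the top 8% of doublet scores (3.17%). With at least 200 genes it was 3 (Epha3, Epha5 and Ntn3, against 3.08% of all genes). It was 2 with no mitochondrial limit (3.18%) and 2 with no UMI minimum (13.5%). With thinning to 1000 UMIs the 1 lower member was Ephb4 (-0.59, against -0.26), and Ntn3 was at -0.36. The members' median log2 ratio stayed between 0.01 and 0.05 and that of the other pathway genes between -0.02 and 0.01. In forebrain inhibitory neuron-like nuclei, Nrp2 was at 0.63, but at -0.55 in cluster 16 alone and -0.10 in cluster 18 alone, both with intervals that held 0; the cause was not tested. With the members allowed in the clustering, Sema5a in radial glia-like nuclei came to -0.27 and Dcc in dividing cell-like nuclei to 0.42. Intervals came to hold 0 for Sema3e in radial glia-like nuclei, for Sema7a and Ntn1 in other excitatory neuron-like nuclei, for Slit1 in dividing cell-like nuclei and for Robo3 in forebrain inhibitory neuron-like nuclei under at least 1 other clustering. These alternatives by cluster were chosen after seeing the data. No replicate could be left out. No paired analysis was possible because each genotype had 1 library. Depth limits the 8 members under 100 UMIs and the classes of under 50 nuclei.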
